A study of Rattus norvegicus with 93 samples.

Results

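At day 14 after surgery, healing tissue from 8 mm skull defects was compared with that from 4 mm defects in the rat. The arrays were those whose titles give day 14: 6 arrays of 8 mm defects (rats 10 to 15) and 5 of 4 mm defects (rats 15, 16, 17, 18 and 20), 11 of the 93 arrays in the series. All animals were male and 12 weeks old. A full disc of calvarial bone was cut out with a trephine of either diameter, the dura mater beneath was left in place, and neither size of defect received any further treatment. The 8 mm defect is the series' critical-size defect (CSD), and the 4 mm defect its non-critical one (non-CSD). Each sample is the plug of 1 defect taken with a trephine of the defect's own diameter, so calvarial bone at the rim, dura and neighbouring tissue could be part of it. Total RNA was labelled with Cy3 and hybridised to 1-colour whole-genome rat arrays. The purpose given by the series' title is to follow gene expression over time during bone repair in this defect.

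A critical-size defect is one that does not bridge with bone by itself within the animal's life, whereas a smaller defect of the same bone fills in from its edges and from the dura. Calvarial bone forms directly from mesenchyme, without a cartilage model, and its repair passes from inflammation through a vascular granulation tissue to woven bone and remodelling. Macrophages clear debris and haemoglobin early in this sequence, capillaries supply the new tissue, and transforming growth factor beta (TGF-beta) and bone morphogenetic proteins (BMPs) act on the cells that make matrix.

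Values are log2 of the deposited linear ratio, in which 0 is for most probes their own median across the series, and -6.64 is the floor of the table, where values have no order. A gene was called when its adjusted p in limma was under 0.05. These p-values measure the spread between samples, each said to be 1 defect. The labels do not say whether a rat number that recurs across sizes or days, such as 15 in both day 14 groups, is 1 animal, and the small number of arrays limits their precision. In such bulk samples, fewer cells of a type and less RNA per cell cannot be told apart.

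Of 15975 genes tested, 261 were called at day 14 (1.63%). They were 243 genes higher in 8 mm defects (1.52%) and 18 lower (0.113%). Most of the 243 showed a 4 mm value below the usual level of the gene and not an 8 mm value above it: their median level was 0.20 in 8 mm defects, -2.96 in 4 mm defects and -0.25 over the other 12 groups of day and size. The 4 mm group of day 14 had the lowest mean of all 14 groups for 205 of these 243 genes, against 2030 of all genes (12.7%). By contrast, the 8 mm group of day 14 was the highest of the 14 for 35 of the 243. Among the 52 higher genes that stayed off the floor on every day 14 array, these counts were 27 and 9. All these genes were called on a low 4 mm mean beside the 8 mm mean of day 14. Extreme ranks of either group are therefore partly built in, and the share of all genes is no like comparison.

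One array stood apart in its share of values at the floor. On the 4 mm array of rat 17, 23.09% of probes lay at the floor, against 17.79% to 19.71% on the other 4 mm arrays and 12.27% to 19.12% on the 8 mm arrays. Its mean correlation with the other 10 arrays of the day was the lowest, 0.103, but those of the others were also low, from 0.122 (8 mm rat 15) to 0.202 (4 mm rat 16). Without 4 mm rat 17, 89 genes were called, of which 79 were among the 261, and the median change of all genes moved from 0.14 to -0.01. Leaving out 4 mm rat 16 gave 398 calls and leaving out 4 mm rat 20 gave 394. When the 11 arrays were fitted alone, without the spread of the other 12 groups, 3 genes were called, with 993 at an unadjusted p under 0.05. Their values varied most among 4 mm defects: the median SD of the 261 called genes was 2.65 there and 0.72 in 8 mm defects, against a spread pooled over the 14 groups of 1.19. The calls at day 14 rest on that pooled spread.

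Values at the floor entered most calls. Of the 243 genes higher in 8 mm defects, 191 had such values, 178 of them on 4 mm arrays only. The array of rat 17 had 149 of the 243 at the floor, the other 4 mm arrays 55 to 82, and the 8 mm arrays 1 to 7. Of 7662 genes that stayed off the floor on each of the 11 arrays, 56 were called (0.731%), 52 of them higher in 8 mm defects and 4 lower. The groups did not overlap for 134 of all genes (0.839%), and 56 of the called genes were among these, 19 of them above the floor throughout. An exact two-sided permutation test over the 11 arrays, whose smallest possible p is 0.00433 among 462 assignments, gave an unadjusted p under 0.05 for 201 of the 261 called genes (77.0%) and for 6.7% of all genes. The test used the same arrays and differences by which the 261 were called, so their higher share is no independent support. Scaling moved the median change of all genes from 0.14 as deposited to 0.02 after median centring and to -0.06 after quantile normalization.

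**Figure D1:**
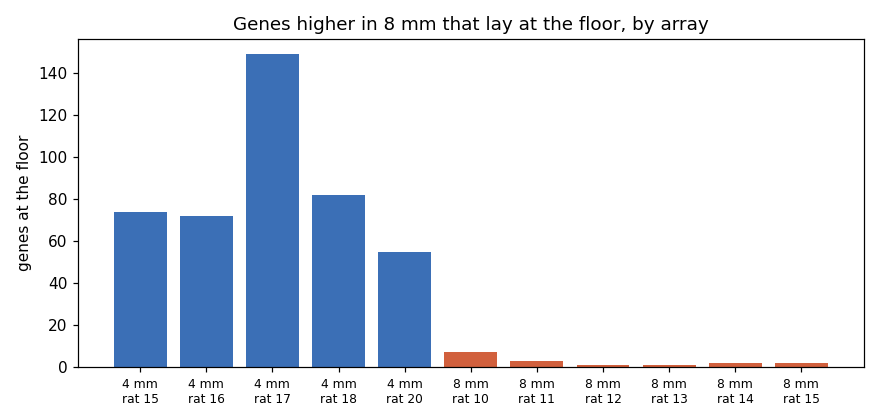
Number of genes at the floor of the table on each day 14 array, counted among the 243 genes higher in 8 mm than in 4 mm defects; blue bars are 4 mm and orange bars 8 mm arrays. The array of 4 mm rat 17 had 149 of them at the floor, the other 4 mm arrays 55 to 82, and the 8 mm arrays 1 to 7.

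A set of 3 genes marks the comparison. Epas1 encodes the hypoxia-inducible transcription factor HIF-2 alpha, which is prominent in endothelium and macrophages. Cfi encodes complement factor I, the protease that inactivates C3b and C4b. Cd163 encodes the scavenger receptor through which macrophages take up haemoglobin bound to haptoglobin. The 250 bases before each start site, from RefSeq on GRCr8, are shown to compare the promoters of the 3 marker genes, each with a low mean in 4 mm defects. They lie at chr6:13624730-13624979 on the minus strand, chr2:221063066-221063315 on the plus strand and chr4:158770524-158770773 on the plus strand. Capitals mark matches, on either strand, to the GC box GGGCGG or the CCAAT box CCAAT.
Epas1: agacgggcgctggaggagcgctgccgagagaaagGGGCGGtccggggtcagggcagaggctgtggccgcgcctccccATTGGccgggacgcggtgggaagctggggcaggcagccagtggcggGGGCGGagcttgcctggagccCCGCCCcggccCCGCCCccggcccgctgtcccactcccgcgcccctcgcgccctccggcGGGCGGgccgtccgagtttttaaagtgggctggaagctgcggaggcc
Cfi: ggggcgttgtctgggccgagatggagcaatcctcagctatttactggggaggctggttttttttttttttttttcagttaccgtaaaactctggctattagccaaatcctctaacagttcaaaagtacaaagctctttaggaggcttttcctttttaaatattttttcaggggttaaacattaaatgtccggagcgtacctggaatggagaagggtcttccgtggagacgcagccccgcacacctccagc
Cd163: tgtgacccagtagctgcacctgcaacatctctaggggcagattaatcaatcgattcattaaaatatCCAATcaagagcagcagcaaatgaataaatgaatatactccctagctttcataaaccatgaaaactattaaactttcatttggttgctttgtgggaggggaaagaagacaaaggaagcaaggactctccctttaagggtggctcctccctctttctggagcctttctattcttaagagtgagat
The promoter of Epas1 held 5 matches to GGGCGG and 1 to CCAAT, that of Cd163 held 1 to CCAAT, and that of Cfi held neither. Of 33469 promoters of the same length, 30.5% held GGGCGG and 34.0% held CCAAT. GC content was 76.8% for Epas1, 45.2% for Cfi and 40.8% for Cd163, beside a median of 51.2%. The TATA box TATAAA had no match on either strand in these 3 windows, and 12.9% of all promoters held one. Of the cores that hypoxia-inducible factors bind, ACGTG had no match in the 3 windows and was in 16.6% of all promoters. The other such core, GCGTG, had none either and was in 25.9% of all promoters.

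Epas1 had 4 mm values of 0.87, -4.69, -3.42, -5.27 and -1.36 for rats 15, 16, 17, 18 and 20, and 8 mm values from -1.46 to 0.95 with a median of 0.29. Rats 15 and 20 of the 4 mm group lay within the 8 mm range, and rats 16, 17 and 18 lay far below it. The difference was 2.84 ± 0.55 (SE, n = 6 and 5), a 7.17-fold higher geometric mean in 8 mm defects (adjusted p = 0.0011 in limma), while the exact permutation test gave p = 0.0519. Here and below, the SE of a difference is that of the limma fit, from the spread pooled over the 14 groups. It is not the SE of the 11 arrays alone, and it overstates precision where 4 mm values vary more than the pooled spread, as for Epas1. The gene was above the floor on all 93 arrays. Its 4 mm mean at day 14, -2.77 ± 2.53 (SD, n = 5), was the lowest of the 14 groups, whose other means lay between -0.78 and 0.25. Raising values under 0.25 to 0.25 ended the call (1.37, adjusted p = 0.169), as did quantile normalization (1.40, adjusted p = 0.212).

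Cfi had 4 mm values of -1.20, -2.39, -3.52, -1.46 and -1.05, in the same order of rats, and 8 mm values from -0.58 to 0.87 with a median of 0.45. Every 8 mm array was above every 4 mm array. The difference was 2.30 ± 0.47 (SE), or 4.93-fold (adjusted p = 0.00212 in limma; exact permutation p = 0.00433). Unlike Epas1, Cfi was also called at day 21, on other arrays: 1.96 ± 0.45 higher in 8 mm defects (adjusted p = 0.0094). Its mean in 4 mm defects was 0.70 ± 0.52 at day 10 (SD, n = 4), -1.92 ± 1.03 at day 14 (n = 5) and -2.02 ± 0.76 at day 21 (n = 6), beside -1.87 ± 0.35 at day 1 (n = 3). In 8 mm defects the means were 0.36 ± 0.65 (n = 6), 0.38 ± 0.54 (n = 6) and -0.06 ± 0.80 (n = 6) at days 10, 14 and 21. Quantile normalization ended the call at day 14 (1.52, adjusted p = 0.297).

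Cd163 had 4 mm values of -6.64, -3.15, -3.55, -4.58 and -2.04 and 8 mm values from -0.98 to 0.85 with a median of 0.50. The groups did not overlap, and the value of 4 mm rat 15 was at the floor. The difference was 4.20 ± 0.78 (SE; adjusted p = 0.00061 in limma; exact permutation p = 0.00433), and the gene's other probe gave 2.87. Raising values under 0.25 to 0.25 lowered it to 2.21 (adjusted p = 0.0521), and quantile normalization to 2.80 (adjusted p = 0.105). The calls of Epas1, Cfi and Cd163 each held in all 11 fits that left out 1 array, with adjusted p of up to 0.0174, 0.0409 and 0.00558.

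**Figure D2:**
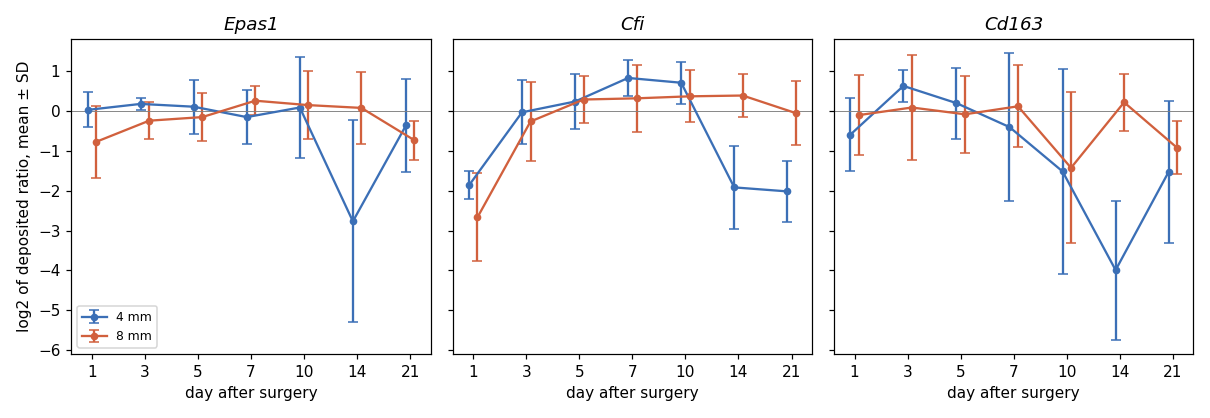
Mean ± SD of log2 values of Epas1, Cfi and Cd163 at each day after surgery (x axis, days evenly spaced) in 4 mm (blue) and 8 mm (orange) defects, with 3 to 12 arrays a group. The 4 mm mean lay below the 8 mm mean at day 14 for all 3 genes, and at day 21 the means of Cfi were -2.02 in 4 mm and -0.06 in 8 mm defects.

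Whether the size difference at day 14 differed from that at another day was tested with interaction terms. For Epas1 the day 14 difference exceeded that of day 21 by 3.21 ± 0.75 (adjusted p = 0.0104) and that of day 10 by 2.78 ± 0.80 (adjusted p = 0.101). For Cfi the excess over day 10 was 2.64 ± 0.69 (adjusted p = 0.0577) and over day 21 it was 0.35 ± 0.65 (adjusted p = 0.885). Cd163 gave 4.10 ± 1.13 over day 10 (adjusted p = 0.0834) and 3.60 ± 1.07 over day 21 (adjusted p = 0.0598).

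Apart from Cd163, no gene of the macrophage and scavenger receptor list was called. Of its 22 measured members 1 was called, beside 1.63% of all genes. Epas1, Cfi and Cd163 mark the comparison, so called shares of lists that hold them are no independent comparison with all genes. The macrophage list's median change was 0.20 (-0.12 after quantile normalization and -0.21 without 4 mm rat 17), beside 0.14 over all genes. Of its 22 members 13 were above 0, as were 56.5% of all genes. Here and in the following lists, members given without a call were chosen after their values were seen. The pan-macrophage genes Cd68 and Adgre1 differed by 0.61 ± 0.42 and 0.77 ± 0.46 (adjusted p = 0.623 and 0.534), and the mannose receptor gene Mrc1 by 1.39 ± 0.51 (adjusted p = 0.172). The list's mean per array lay between -1.41 and 0.16 in 4 mm and between -1.18 and -0.22 in 8 mm defects, with medians of -0.55 and -0.57. Csf1r, the receptor for the macrophage growth factor, differed by -4.79 ± 2.41 (adjusted p = 0.406). It was at the floor on 4 of 6 arrays of 8 mm defects and on 1 of 5 of 4 mm defects. Cd68, Adgre1, Cd14 and the C1q genes were above the floor on all 11 arrays. The part of macrophage number in the result for Cd163 was not tested.

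Mertk, a receptor with which macrophages engulf dying cells, was named after its values were seen and belongs to no list used here. It lay at the floor on 4 of 5 arrays of 4 mm defects, with -0.80 on that of rat 18, and between -1.37 and -0.02 in 8 mm defects. The groups overlapped in that 1 array. The difference was 4.91 ± 0.95 (adjusted p = 0.00122; exact permutation p = 0.00866) and exceeded that of day 21 by 7.35 (adjusted p = 0.0004). Raising values under 0.25 to 0.25 ended the day 14 call (1.20, adjusted p = 0.24).

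Among genes of haem and iron handling, 3 of 16 measured members were higher in 8 mm defects and 0 lower, beside 1.52% of all genes higher: Cd163, Lcn2 and Tfrc. Of these, Cd163 is a marker of the comparison and adds no separate support for the list. The list's median change was 0.23 (-0.05 after quantile normalization), beside 0.14 over all genes. Lcn2, the iron-chelating lipocalin of neutrophils and stressed epithelia, had 4 mm values of -6.64, -6.64, -2.99, -3.25 and -1.65 and 8 mm values from -1.12 to 1.35 with a median of -0.05. The groups did not overlap (4.31 ± 0.87, adjusted p = 0.00176), and the size difference exceeded that of day 10 by 7.07 ± 1.27 (adjusted p = 0.00119). The day 14 call of Lcn2 ended after quantile normalization (3.19, adjusted p = 0.252) and with values under 0.25 raised (2.01, adjusted p = 0.197). Tfrc, the transferrin receptor gene, was at the floor on 4 arrays of 4 mm defects and read 1.09 on that of rat 16, beside -0.44 to 2.90 in 8 mm defects. Its call (6.69 ± 1.79, adjusted p = 0.0325) rests on floor values, its 3 probes ranged from -0.57 to 6.69, and it was lost in 8 of the 11 fits that left out 1 array (without 4 mm rats 15, 17, 18 or 20, or 8 mm rats 10, 12, 14 or 15; adjusted p up to 0.109). Hmox1, the haem-degrading oxygenase, differed by 1.14 ± 0.46 (adjusted p = 0.244).

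In the complement list Cfi was the 1 called gene of 24 measured members, beside 1.63% of all genes called. The list's median change was 0.30, and it was -0.04 after quantile normalization and -0.20 without 4 mm rat 17. The central component C3 differed by 1.57 ± 0.48 (adjusted p = 0.0725) and C4a by 1.70 ± 0.53 (adjusted p = 0.0762). The C1q genes C1qa, C1qb and C1qc differed by 0.33 ± 0.52, 0.41 ± 0.42 and 0.01 ± 0.46 (adjusted p = 0.893, 0.800 and 0.998).

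Epas1 was likewise the 1 called gene among 30 of hypoxia and glycolysis, beside 1.63% of all genes called. The median change of this list was 0.10 (-0.22 after quantile normalization and -0.02 after centring). The related factor Hif1a differed by 0.10 ± 0.46 (adjusted p = 0.972). Vegfa, the vascular growth factor, differed by 0.27 ± 0.42 (adjusted p = 0.893), Ldha by -0.01 ± 0.45 (adjusted p = 0.997) and the glucose transporter gene Slc2a1 by -0.44 ± 0.45 (adjusted p = 0.805).

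The endothelial list had 2 called genes of 25 measured, Plvap and Eng, beside 1.63% of all genes called. Of the 25, 16 were above 0, and the median change was 0.39 (-0.10 after quantile normalization), beside 0.14 over all genes. Plvap, which forms the diaphragms of fenestrated capillaries, had 4 mm values of -2.65, -6.64, -6.64, -2.78 and -1.26. Its 8 mm values lay within 0.28 to 0.67, with a median of 0.46. The groups were far apart (4.47 ± 0.77, adjusted p = 0.000232; exact permutation p = 0.00433), and the difference exceeded that of day 10 by 4.47 ± 1.12 (adjusted p = 0.0448) and that of day 21 by 4.03 (adjusted p = 0.0254). With values under 0.25 raised Plvap differed by 2.33 (adjusted p = 0.000497). Eng, the TGF-beta co-receptor endoglin, differed by 2.27 ± 0.63 (adjusted p = 0.038); without 4 mm rat 17 the adjusted p was 0.488, and the call also ended without 4 mm rat 18 or any of 8 mm rats 11 to 15. The lineage genes Pecam1 and Cdh5 differed by 0.11 ± 0.59 and 0.39 ± 0.48 (adjusted p = 0.975 and 0.852), and neither was called. Among the members below 0, the angiopoietin receptor gene Tek differed by -4.55 ± 2.33 (adjusted p = 0.421), with floor values on 4 of 6 arrays of 8 mm and 1 of 5 of 4 mm defects. P-selectin (Selp) differed by -1.35 ± 2.41 and the tight junction gene Cldn5 by -0.56 ± 0.50 (adjusted p = 0.911 and 0.752).

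The BMP and TGF-beta list had 3 called genes of 34 measured, all higher in 8 mm defects, beside 1.63% of all genes called. Its median change was 0.68, and 29 members were above 0, as were 56.5% of all genes. Tgfbr2, the type II TGF-beta receptor, read -1.39, -1.52, -6.64, -3.55 and -0.38 in 4 mm defects. In 8 mm defects it read -0.59 to 0.91, with a median of 0.21. Rat 20 of the 4 mm group overlapped the 8 mm range. The difference was 2.86 ± 0.49 (adjusted p = 0.000215; exact permutation p = 0.00866), held in all 11 fits that left out 1 array, and exceeded those of day 10 and day 21 by 3.10 ± 0.71 (adjusted p = 0.0212) and 3.17 (adjusted p = 0.00399). With values under 0.25 raised it was 1.62 (adjusted p = 0.0113), and after quantile normalization 1.85 (adjusted p = 0.00355). For the other called genes of the list, Tgfb1 and Smad6, both settings ended the call.

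Tgfb1, the ligand, differed by 1.93 ± 0.47 (adjusted p = 0.0136), but its 4 mm values were -0.67, -1.10, -1.64 and -0.51 apart from a floor value for rat 17, without which the difference was 0.80 (adjusted p = 0.39). Smad6, an inhibitor of BMP signalling, differed by 3.66 ± 0.94 (adjusted p = 0.0229); the call ended without 4 mm rat 17 or 18 (adjusted p up to 0.246). The BMP receptor gene Bmpr2 differed by 3.17 ± 1.00 (adjusted p = 0.0853) and the ligand gene Bmp6 by 2.79 ± 1.07 (adjusted p = 0.201). The BMP target genes Id1, Id2 and Id3 differed by 0.23 ± 0.47, 0.70 ± 0.39 and 0.36 ± 0.43 (adjusted p = 0.925, 0.495 and 0.848). Smad1, which carries the BMP signal and was named after its values were seen, differed by 3.73 ± 1.07 (adjusted p = 0.0493); its second probe gave -0.05, and the call was lost in 8 of 11 fits without 1 array (4 mm rats 15, 17 or 18, or 8 mm rats 10, 12, 13, 14 or 15; adjusted p up to 0.246).

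Genes of bone itself gave no call. Of 20 bone matrix and mineralization genes, 16 of them above the floor on all 11 arrays, 0 were called, with 1.63% of all genes called, and the median change was 0.55. Type I collagen Col1a1 differed by 0.08 ± 0.41 (adjusted p = 0.975), osteocalcin (Bglap) by 0.80 ± 1.11 (adjusted p = 0.873) and Dmp1, an osteocyte matrix gene, by 1.20 ± 1.17 (adjusted p = 0.786). Bglap, made by mature osteoblasts, was above the series' median in both sizes, with means of 4.54 in 4 mm and 5.34 in 8 mm defects. The smallest p of the list was that of osteopontin (Spp1), with 1.34 ± 0.49 (adjusted p = 0.164), followed by osteomodulin (Omd), with 1.33 ± 0.70 (adjusted p = 0.442).

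Of 14 osteoblast transcription factors, Sox4 was called (2.86 ± 0.66, adjusted p = 0.00854), beside 1.63% of all genes called. The 4 mm values of Sox4 included 2 at the floor, its exact permutation p was 0.113, and its 3 probes ranged from -0.35 to 2.86. Its call ended without 4 mm rat 15 or 17 (adjusted p up to 0.15). None of 30 Wnt genes was called, though 25 were above 0 and the median change was 0.68, beside 56.5% above 0 and a median of 0.14 over all genes. Frzb, a secreted Wnt antagonist, differed by 3.38 ± 1.27 (adjusted p = 0.182) and the ligand gene Wnt1 by -2.38 ± 0.90 (adjusted p = 0.185). Of 26 FGF and IGF genes, Igfbp4, which binds IGFs, was called (1.94 ± 0.54, adjusted p = 0.0392), beside 1.63% of all genes called. The call ended without 4 mm rat 17 (0.78, adjusted p = 0.617) or without any 1 of 8 mm rats 10 to 14. The second probe of Igfbp4 gave 0.25, and the mean of its probes 1.09 (adjusted p = 0.172).

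Mmp9, the gelatinase of osteoclasts and neutrophils, was the 1 called gene in the osteoclast list (15 measured, 13 above 0, median 0.54), and the 1 called in the metalloproteinase list (21 measured, median 0.86). Without 4 mm rat 17 these medians were 0.50 and 0.21. Over all genes, 1.63% were called, 56.5% were above 0 and the median was 0.14. The 4 mm values of Mmp9 were -2.20, 0.47, -2.19, -0.94 and -2.24 and its 8 mm values -0.24 to 1.81, with a median of 1.28. The groups overlapped through 4 mm rat 16. The difference was 2.33 ± 0.57, or 5.03-fold (adjusted p = 0.0145; exact permutation p = 0.013), and without 4 mm rat 17 it was 2.14 (adjusted p = 0.0762). The resorption genes Acp5 and Ctsk differed by 0.74 ± 0.45 and 0.07 ± 0.45 (adjusted p = 0.548 and 0.979), and Atp6v0d2, a proton pump subunit needed for osteoclast fusion, by 2.56 ± 0.99 (adjusted p = 0.204). In the neutrophil list, Mmp9 and Lcn2 were the 2 called of 16 measured, beside 1.63% of all genes called. S100a9 differed by -0.33 ± 0.62 (adjusted p = 0.918). The list's median change was 0.25 (-0.16 after quantile normalization), and its mean per array lay between -1.77 and -0.72 in 4 mm and between -1.13 and 0.19 in 8 mm defects.

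Interferon-response genes lay mostly below 0. None of 23 measured members was called and 4 were above 0, beside 1.63% and 56.5% of all genes. The list's median change was -0.93 (-1.25 after quantile normalization, -1.04 after centring and -1.94 without 4 mm rat 17). Isg15, a ubiquitin-like protein induced by interferon, had 4 mm values of 3.67, 4.02, -0.31, 2.84 and 3.88 and 8 mm values from -0.85 to 2.80 with a median of 0.69. Of the 4 mm arrays, 4 were above every 8 mm array and that of rat 17 was low. The difference was -2.04 ± 0.71 (adjusted p = 0.139), and minus that of day 21 it gave -3.39 (adjusted p = 0.0493). Cxcl10, a chemokine for T cells, read 3.82, 7.26, 1.84, 3.21 and 5.29 in 4 mm defects and -0.83 to 3.93 in 8 mm defects, with a median of 1.68 (-2.72 ± 1.06, adjusted p = 0.215). Irf1 was one of the members above 0, with 1.40 ± 0.51 (adjusted p = 0.168).

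Slfn4, a schlafen gene of myeloid cells that interferon induces, was not in the list but was called lower in 8 mm defects. Its 4 mm values were 2.07, 4.10, -0.23, 2.96 and 3.64 and its 8 mm values -3.48 to 1.80, with a median of -0.29. Rat 17 again was the low 4 mm array, and the groups overlapped there. Slfn4 fell by 3.03 on the log2 scale from 4 mm to 8 mm defects (SE 0.72), so that the 4 mm geometric mean was 8.14-fold higher (adjusted p = 0.0112; exact permutation p = 0.0303). Without 8 mm rat 15 the adjusted p was 0.0593. The day 14 difference minus that of day 21 was -4.39 (adjusted p = 0.00702).

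The other 3 genes above the floor that were lower in 8 mm defects had smaller changes. Tmem88, an inhibitor of canonical Wnt signalling, read 0.36 to 1.13 in 4 mm and -0.92 to 0.33 in 8 mm defects, without overlap (-1.17 ± 0.31, adjusted p = 0.0266). At day 21 the gene was called in the other direction (1.12 ± 0.29, adjusted p = 0.0213), and the difference between the days was -2.30 (adjusted p = 0.00057). Sds, the serine dehydratase gene, read 0.82 to 2.11 and -0.71 to 0.73, also without overlap (-1.13 ± 0.32, adjusted p = 0.0494). Gpd1l1 overlapped between the groups (-1.25 ± 0.36, adjusted p = 0.0496; exact permutation p = 0.0779). Each was lost in several fits that left out 1 array: Tmem88 in 4 (4 mm rats 17 and 18, 8 mm rats 12 and 15; adjusted p up to 0.088), Sds in 8 (4 mm rats 15, 16 and 17, 8 mm rats 10, 11, 12, 14 and 15; up to 0.149) and Gpd1l1 in 6 (4 mm rats 16, 17 and 18, 8 mm rats 11, 13 and 15; up to 0.239).

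The 12 genes higher in 8 mm defects and above the floor throughout with the largest changes were Epas1, Slc10a6, Zxdc, Cadm4, Folr1, St6galnac2, Mmp9, Klf9, Cfi, Ptgis, Rbbp4 and Doxl1, at 2.84 down to 2.07. Slc10a6, a transporter of sulfated steroids, had 4 mm values of -1.97, -1.91, -2.03, -2.75 and -2.73. On the 8 mm arrays it read 0.64 to 1.08 except for -1.17 on that of rat 15, and the groups did not overlap. The difference was 2.75 ± 0.53, or 6.75-fold (adjusted p = 0.00122; exact permutation p = 0.00433), and it exceeded that of day 10 by 3.08 ± 0.78 (adjusted p = 0.0468). The call held after quantile normalization and in all 11 fits without 1 array. The other 11 of these 12 genes lost the call after quantile normalization, with adjusted p from 0.175 (Folr1) to 0.775 (Zxdc).

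Cadm4, a cell adhesion molecule of the immunoglobulin family, had 4 mm values of -1.02, -2.12, -0.94, -4.45 and -0.14 and 8 mm values from 0.46 to 1.34 with a median of 0.77. The difference was 2.56 ± 0.57 (adjusted p = 0.00567), and 1.88 without 4 mm rat 18 (adjusted p = 0.0696). St6galnac2, a sialyltransferase, read -1.89, -0.53, -2.44, -2.57 and -0.81 beside 0.31 to 1.08 (median 0.73), a difference of 2.41 ± 0.57 (adjusted p = 0.0103, and 0.0678 without 4 mm rat 17). Both genes separated the groups without overlap, as did Ptgis, Klf9 and Doxl1.

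Ptgis, the prostacyclin synthase of vessel walls, read -1.17, -0.38, -3.61, -0.31 and -0.94 in 4 mm and -0.11 to 1.46 in 8 mm defects (2.11 ± 0.46, adjusted p = 0.00408, and 0.103 without 4 mm rat 17). Klf9, a transcription factor induced by glucocorticoids, differed by 2.31 ± 0.63 (adjusted p = 0.0359); its second probe gave 0.36, and the call was lost in 7 of 11 fits without 1 array (4 mm rats 17 and 20 and 8 mm rats 11 to 15; adjusted p up to 0.199). Doxl1, a diamine oxidase-like gene, read 0.00, -0.29, -0.10, -0.67 and -1.0 in 4 mm and 1.30 to 2.29 in 8 mm defects (2.07 ± 0.56, adjusted p = 0.0327); the call was lost in 5 of 11 fits (4 mm rats 17, 18 and 20, 8 mm rats 10 and 13; up to 0.0741). For Doxl1 the 8 mm group and not the 4 mm group lay away from 0.

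Folr1, a folate receptor, differed by 2.46 ± 0.51 (adjusted p = 0.00212), Zxdc, a zinc finger protein, by 2.61 ± 0.61 (adjusted p = 0.00978) and Rbbp4, a histone-binding protein, by 2.11 ± 0.54 (adjusted p = 0.0224). All 3 overlapped between the groups and lost the call without 4 mm rat 17, the adjusted p rising to 0.106, 0.162 and 0.363. Zxdc and Rbbp4 lost it also without 4 mm rat 18, and Rbbp4 without 8 mm rat 10. The 3 probes of Rbbp4 ranged from 0.27 to 2.33, and their mean gave 1.57 (adjusted p = 0.0753).

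**Figure D3:**
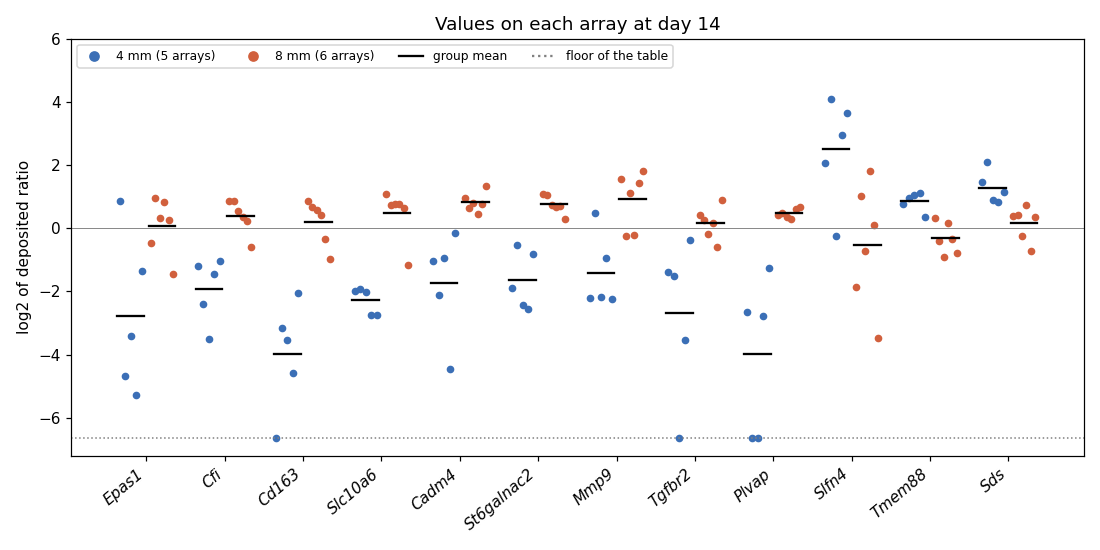
Log2 values of 12 called genes on each day 14 array, 4 mm in blue and 8 mm in orange, with group means as black bars and the floor of the table as a dotted line. In the first 9 genes the 4 mm arrays lie mostly below the 8 mm arrays, and in Slfn4, Tmem88 and Sds they lie mostly above. In the first 9 genes the 4 mm spread is wider except in Slc10a6 (SD 0.42 in 4 mm and 0.82 in 8 mm defects).

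The 5 largest changes with values at the floor were those of 1700013D24Rik, Fam135b, Ppfia4, Tfrc and Wdr89, and their size depends on where the floor lies. 1700013D24Rik was at the floor on all 6 arrays of 8 mm defects and read 0.92 to 3.38 in 4 mm defects. Fam135b was at the floor on all 5 arrays of 4 mm defects and read -1.36 to 1.52 in 8 mm defects. Ppfia4, a liprin, was at the floor on 3 of the 4 mm arrays and read -4.60 and -4.73 on the others, beside 0.35 to 1.71. These 3 genes were also the 3 called in the fit of the 11 arrays alone, but tied floor values have no spread. The SD was 0.0 for 1700013D24Rik in 8 mm and for Fam135b in 4 mm defects. Quantile normalization ended all 3 calls (adjusted p = 0.0722, 0.122 and 0.122). With values under 0.25 raised, Fam135b lost the call (2.46, adjusted p = 0.178) and the other 2 genes kept it. The 3 probes of Ppfia4 ranged from -1.83 to 7.02, and their mean gave 1.5 (adjusted p = 0.427). Wdr89 was at the floor on 4 of the 4 mm arrays and read 0.22 on that of rat 16, beside 0.49 to 2.51. Its difference was 6.58, and its other probe gave a difference of 0.49. Without 4 mm rat 17 the adjusted p was 0.0681 for 1700013D24Rik and 0.0801 for Wdr89.

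Other called members of the lists were Epyc, Plin1 and Nr1d1. Epyc, the cartilage proteoglycan epiphycan, read 2.19, -0.66, -6.64, -0.15 and 1.90 in 4 mm and 1.02 to 4.81 in 8 mm defects (4.10 ± 0.95, adjusted p = 0.00854); without 4 mm rat 17 it was 2.61 (adjusted p = 0.201). Plin1, which coats the lipid droplets of fat cells, was at the floor on all 5 arrays of 4 mm and on 1 of 8 mm defects (adjusted p = 0.0434), and lost the call in all fits without 1 array other than 8 mm rat 10 (up to 0.106). Nr1d1, a clock repressor, differed by 2.26 ± 0.61 (adjusted p = 0.0338); the call ended without 4 mm rat 17 (1.20, adjusted p = 0.46) or 8 mm rats 10, 11, 13 or 14. The median change was 0.29 over 10 measured proteoglycans, 0.03 over 14 adipocyte genes (-0.37 after quantile normalization) and 0.07 over 15 clock genes (-0.05 after centring).

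Lists of neighbouring tissue and of other cells gave no further call. Meninges and dura (16 measured) had a median of 0.72, with Slc47a1, a meningeal transporter gene, at 1.63 ± 0.48 (adjusted p = 0.0589) and Foxc1 at 1.77 ± 0.72 (adjusted p = 0.247); the mean per array was -0.53 to 1.77 in 4 mm and -0.14 to 2.42 in 8 mm defects. Neurons, astrocytes and myelin (18 measured) had a median of 0.06 (-0.06 after centring), and array means of -1.78 to 3.00 and -1.17 to 3.08. The highest of these means were those of 4 mm rat 17, the array that stood apart, and 8 mm rat 11. Skeletal muscle (21 measured) had a median of 0.86 and array means of -3.46 to -1.61 and -3.34 to 1.21, with Ckm, the muscle creatine kinase, at the floor on 4 arrays of each size. The means of the brain and muscle lists ranged widely among plugs of either size, and with both scores as covariates 257 genes were called at day 14.

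Among the remaining lists, the median change was 0.48 over 19 genes of fibroblasts and wound matrix, where Loxl1 differed by 1.49 ± 0.46 (adjusted p = 0.0738) and Col14a1 by 2.75 ± 0.85 (adjusted p = 0.0751). It was 0.44 over 14 of smooth muscle and pericytes, 0.20 over 17 of cartilage, 0.50 over 15 of MHC class II presentation, 1.08 over 10 of mast cells and 0.50 over 13 of epidermis. The median was -0.06 over 31 inflammatory cytokines and chemokines, -0.02 over 19 of T and natural killer cells, -0.30 over 25 of the cell cycle and -0.38 over 13 erythroid genes. B and plasma cells (9 measured) had 0.15 as deposited and -0.57 after quantile normalization. None of these lists had a called member. Without 4 mm rat 17 the median was 0.07 for fibroblasts and wound matrix, 0.19 for smooth muscle and pericytes and 0.46 for cartilage. It was then 0.07 for MHC class II presentation, 0.46 for mast cells and 0.28 for epidermis. Quantile normalization gave 0.27 for mast cells.

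**Figure D4:**
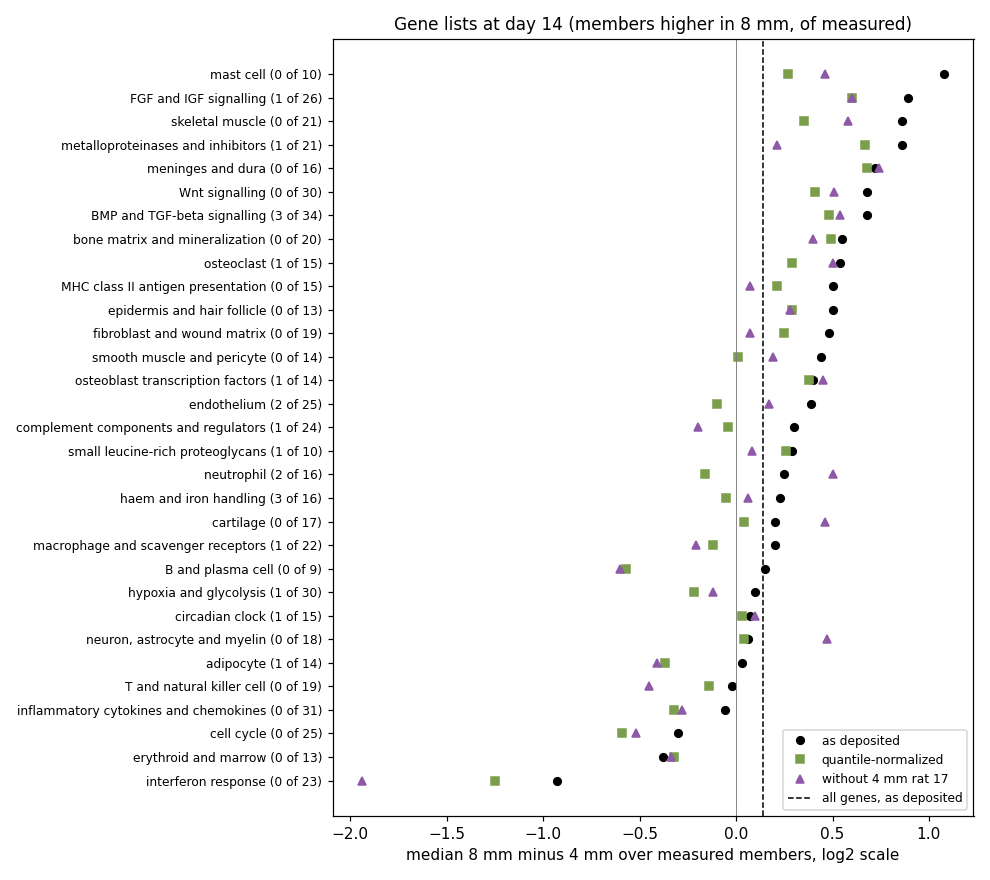
Median size difference at day 14 (8 mm minus 4 mm, log2) over the measured members of 31 gene lists, as deposited (black), after quantile normalization (green) and without 4 mm rat 17 (purple); the dashed line is the median of all genes as deposited, 0.14, and brackets give members called higher. No list had a member called lower, BMP and TGF-beta signalling had 3 called of 34, and the interferon list lies lowest, at -0.93 as deposited.

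The size difference at day 14 differed from that at day 10 for 60 genes (0.376%) and from that at day 21 for 299 genes (1.87%). The value of day 14 minus day 10 was above 0 in 46 and below 0 in 14. For day 14 minus day 21 it was above 0 in 264 and below 0 in 35. These signs do not say at which of the days the groups differed. After median centring the counts were 45 and 26 for day 10 and 233 and 77 for day 21, and after quantile normalization 3 and 2, and 10 and 5. Fitted on the groups compared alone, limma called 0 genes in either, with 857 and 1355 at an unadjusted p under 0.05. Without 4 mm rat 17 there were 36 and 199, and leaving out 4 mm rat 15, 16 or 20 raised the first count to 117, 110 and 110.

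The smallest p-values against day 10 were those of Rad9a, Vwa1, Lcn2, Nab2, Mrpl38 and Cdk18. Vwa1, a matrix protein of basement membranes and cartilage, read -4.76, -6.64, -6.64, -1.32 and -1.45 in 4 mm and 0.08 to 1.74 in 8 mm defects at day 14 (4.97 ± 0.65, adjusted p = 2.35e-07). Its difference exceeded that of day 10 by 6.97 ± 0.94 (adjusted p = 9.31e-07) and that of day 21 by 4.65 (adjusted p = 0.000989). With values under 0.25 raised, Vwa1 differed by 2.56 at day 14 (adjusted p = 0.00313). Nab2, a corepressor of EGR factors, gave an excess of 7.82 ± 1.41 over day 10 (adjusted p = 0.00119). It differed by 4.22 ± 0.96 at day 14 (adjusted p = 0.00759) and by -3.60 ± 1.03 at day 10 (adjusted p = 0.119). At day 14, 3 of its 4 mm values were at the floor and the groups overlapped. The day 14 call of Nab2 ended after quantile normalization (3.48, adjusted p = 0.0795) and with values under 0.25 raised (1.36, adjusted p = 0.139). Rad9a, of the DNA damage checkpoint clamp, and Cdk18, a kinase, had no call at day 14 itself (adjusted p = 0.275 and 0.263). Their day 14 differences minus those of day 10 were -7.28 ± 0.84 (adjusted p = 6.93e-09) and -3.24 ± 0.60 (adjusted p = 0.00143). Both were called at day 10, higher in 8 mm defects by 5.92 ± 0.62 (adjusted p = 7.58e-11) and 2.27 ± 0.43 (adjusted p = 0.00276).

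Against day 21 the smallest p-values were those of Mrpl38, Cnnm2, Tmem129, Fez2, Zbtb43 and Cdc42bpb. Fez2 had no call at day 14 (0.88 ± 0.46, adjusted p = 0.444) and was called lower in 8 mm defects at day 21 (-3.24 ± 0.44, adjusted p = 1.28e-06). Mrpl38, of the mitochondrial ribosome, was at the floor on 3 arrays of 4 mm defects, with -3.71 and -4.43 on the others, and read -3.53 to 0.11 in 8 mm defects. It was called at day 14 (4.50 ± 0.59, adjusted p = 2.58e-07), and its difference exceeded that of day 21 by 5.97 (adjusted p = 1.93e-06) and that of day 10 by 4.80 ± 0.87 (adjusted p = 0.00119). With values under 0.25 raised, the day 14 call of Mrpl38 ended (1.14, adjusted p = 0.189), as did those of Cnnm2 (1.53, adjusted p = 0.0886), Tmem129 (1.37, adjusted p = 0.344) and Zbtb43 (0.98, adjusted p = 0.495). Tmem129 and Zbtb43 were called in opposite directions at the days: Tmem129 by 5.62 ± 1.02 at day 14 and -3.61 ± 0.98 at day 21, Zbtb43 by 3.71 ± 0.96 and -4.76 ± 0.92. Both had floor values in 4 mm defects at day 14 and in 8 mm defects at day 21. Zbtb43 lost its day 14 call in 5 of 11 fits without 1 array (4 mm rats 15, 18 and 20, 8 mm rats 12 and 14, adjusted p up to 0.0867). Its second probe gave 0.28 at day 14, and the mean of its probes 2.0 (adjusted p = 0.0632). Cdc42bpb, a kinase of the cytoskeleton, and Cnnm2 were called at day 14 (4.64 ± 0.70 and 5.25 ± 0.67), though 1 of the 3 probes of Cdc42bpb gave -0.05 and raising values under 0.25 lowered it to 2.18 (adjusted p = 0.000221).

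Itga7, a laminin receptor subunit, and Gucy1a1, a subunit of the nitric oxide receptor of smooth muscle, were named after their values were seen. Gucy1a1 read 0.00, -0.98, -6.64, -6.64 and -1.76 in 4 mm and 0.61 to 1.37 in 8 mm defects (4.19 ± 0.88, adjusted p = 0.0025, and 0.0636 without 4 mm rat 17). Quantile normalization ended the call of Gucy1a1 (3.46, adjusted p = 0.0795), and with values under 0.25 raised it was 2.33 (adjusted p = 0.0131). Itga7 differed by 3.43 ± 0.63 (adjusted p = 0.000545) and exceeded day 10 by 4.15 ± 0.91 (adjusted p = 0.0146), while its second probe gave -0.37 and raising values under 0.25 ended the day 14 call (1.60, adjusted p = 0.0643).

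Calls were also compared between days, whose arrays are different ones. Of the 42 genes called at day 10, 4 were called at day 14 in the same direction and 0 in the opposite one, beside 1.63% of all genes called at day 14. They were Col8a1, Col8a2, Epyc and Slc5a6, named here after their values were seen, all higher in 8 mm defects. Col8a1 and Col8a2 encode the 2 chains of type VIII collagen, a short-chain collagen of vessel walls and basement membranes. Col8a2 read 0.57, 0.29, -0.13, 1.24 and 0.77 in 4 mm and 1.58 to 2.83 in 8 mm defects at day 14, with no overlap and with 8 mm values above the usual level. Its difference was 1.55 ± 0.40 at day 14 (adjusted p = 0.0229) and 2.07 ± 0.42 at day 10 (adjusted p = 0.00653), and at day 21 it was 1.08 ± 0.38 (adjusted p = 0.113). Col8a1 gave 1.59 ± 0.44 at day 14 (adjusted p = 0.0374) and 1.96 ± 0.46 at day 10 (adjusted p = 0.0322). The day 14 calls ended without 4 mm rat 17 (1.38, adjusted p = 0.115 for Col8a2, and 1.06, adjusted p = 0.352 for Col8a1), without 8 mm rat 10 or 13, and for Col8a1 also without 4 mm rat 18 or 8 mm rat 12 or 14; the second probe of Col8a2 gave 0.52.

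Slc5a6, the transporter of biotin and pantothenate, was called at days 10, 14 and 21. At day 14 its 4 mm values were 0.99, 0.00, 0.62, 0.42 and 0.28 and its 8 mm values 1.25 to 2.27, with a median of 1.83. The groups did not overlap, and here too the 8 mm group was the one away from 0. The differences were 2.28 ± 0.40 (adjusted p = 0.00062), 1.35 ± 0.37 (adjusted p = 0.0392) and 1.55 ± 0.36 (adjusted p = 0.00971) at the 3 days. The call at day 14 was near the threshold, and 9 of the 11 fits without 1 array lost it (all but 4 mm rat 15 and 8 mm rat 15), with adjusted p up to 0.0951 and differences of 1.24 to 1.48.

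Of the 383 genes called at day 21, 6 were called at day 14 in the same direction and 9 in the opposite one, beside 1.63% of all genes called at day 14. Whether the overlap with day 10 or day 21 exceeds chance was not tested. The 6 were Cfi, Gprin1, Marcks, Slc5a6, Spsb1 and Zxdc. Marcks, a substrate of protein kinase C at the membrane, differed by 1.84 ± 0.49 at day 14 (adjusted p = 0.0327) and 1.65 ± 0.47 at day 21 (adjusted p = 0.0383), and Zxdc by 2.61 ± 0.61 and 2.57 ± 0.58. For Gprin1 the values were 1.45 ± 0.40 and 1.56 ± 0.38, and for Spsb1, which had floor values on both days, 3.39 ± 0.89 and 3.52 ± 0.85. The 4 probes of Marcks ranged from 0.14 to 1.84 at day 14, and their mean gave 0.68 (adjusted p = 0.45). The day 14 calls ended in several fits without 1 array: for Marcks without 4 mm rats 17 or 18 or 8 mm rats 10, 12 or 15, for Gprin1 without 4 mm rats 16, 17 or 18 or 8 mm rats 10, 12, 13 or 15, and for Spsb1 without 4 mm rats 15 or 18 or any of 8 mm rats 11 to 14. Of the 9 in the opposite direction, 8 had floor values on both days and the other was Tmem88.

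**Figure D5:**
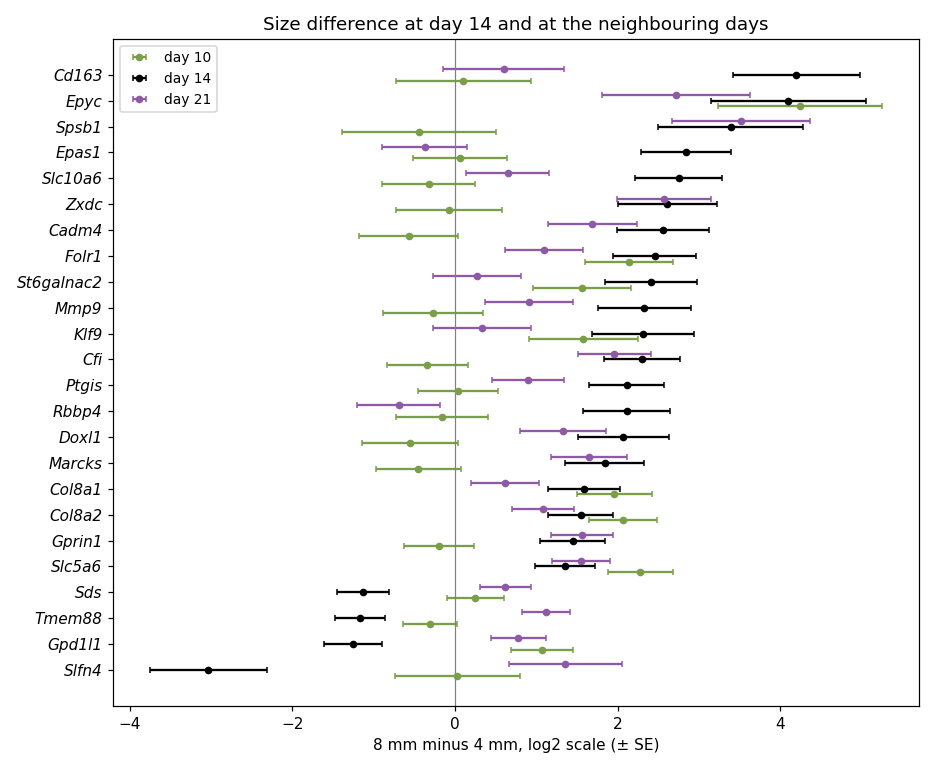
Size difference (8 mm minus 4 mm, log2, ± SE) at days 10, 14 and 21 for the genes named as largest above the floor and those called in the same direction on another day. Among those called on another day, Col8a1, Col8a2, Epyc and Slc5a6 lie above 0 at all 3 days, and Cfi, Zxdc, Marcks, Gprin1 and Spsb1 at days 14 and 21. Genes not called on another day, such as Folr1, Klf9 and St6galnac2, also lie above 0 at all 3 days.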

How the data were processed

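Per the labels' protocols, RNA of each defect was purified on columns and hybridised to 1-colour Agilent arrays. The authors deposited 1 table of linear ratios for 41090 probes and 93 arrays, and the median of a probe was 1 for 87.8% of probes. The scanner, any background correction, the scaling of the arrays and the reason for a floor at 0.01, which held 13.4% of values, are not given here by labels or file. Signal over background cannot be given.

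Values were put on a log2 scale from the deposited ratios, without a pseudocount. GEO's platform annotation named 20932 probes by 1 symbol and left 20158 unnamed, with 17424 probes matched to RefSeq names of GRCr8. The most variable of several probes was used for 3880 of 15975 genes. All 14 groups of day and size entered 1 cell-means fit (limma 3.58.1, lmFit and eBayes, prior df 1.9, under R 4.3.3), with two-sided moderated tests, Benjamini-Hochberg adjustment over all genes and a threshold of 0.05. The steps were tested on simulated data.

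Named genes were the 12 largest increases and decreases above the floor among called genes, the 5 largest with floor values, every called member of 31 lists (595 of 655 entries measured), up to 3 members with the smallest p of a list without a call, and the 6 smallest p-values of each interaction; 4 genes lower above the floor were all there were. Others are said to be chosen after their values were seen. The members and lists were chosen with earlier results of these data known. Alternatives covered scaling, filters, probes, floor values, array weights, the samples fitted, rat number, brain and muscle scores, and each array left out.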

Additional observations from a re-analysis of the deposited data

Results flagged for a closer look

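In 17 of 164 sets of 5 or 6 arrays examined, the values of a named called gene or the mean of a gene list at day 14 in 1 size, the lowest or highest array was farther from the next than Dixon's 95% limit allows. Chance alone passes this limit in about 1 in 20 groups when values are independent and not tied. Floor values are tied and the sets share samples, so 17 of 164 cannot be weighed against that rate. Of these arrays, 8 were that of 4 mm rat 17, each time the lowest: it read -3.61 for Ptgis, -6.64 for Tgfb1, -6.64 for Nr1d1 and -2.23 for Col8a1, and its mean was -1.88 over fibroblast and wound matrix genes, -1.51 over small leucine-rich proteoglycans, -2.23 over complement genes and -4.41 over mast cell genes. Among 4 mm arrays a single high value stood apart for Tfrc (1.09, rat 16), Wdr89 (0.22, rat 16), Cnnm2 (0.30, rat 15) and Mertk (-0.80, rat 18), whose other 4 arrays were at the floor. In 8 mm defects rat 15 was low for Slc10a6 (-1.17) and Sox4 (-4.79), rat 10 was low for Klf9 (0.57), and rat 11 was low in the mean of B and plasma cell genes (-3.80) and high in that of neurons, astrocytes and myelin (3.08).

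The size difference (8 mm minus 4 mm) at day 14 differed from that at day 10 in the limma interaction test for these named genes, with the day 14 minus day 10 value in brackets: Slc10a6 (3.08), Gpd1l1 (-2.32), Sox4 (3.88), Lcn2 (7.07), Plvap (4.47), Tgfbr2 (3.10), Rad9a (-7.28), Vwa1 (6.97), Nab2 (7.82), Mrpl38 (4.80), Cdk18 (-3.24), Cnnm2 (3.94) and Itga7 (4.15). From that at day 21 it differed, with the day 14 minus day 21 value in brackets, for Epas1 (3.21), Rbbp4 (2.79), Slfn4 (-4.39), Gpd1l1 (-2.03), Tmem88 (-2.30), Sds (-1.75), Fam135b (9.47), Tfrc (11.36), Plvap (4.03), Isg15 (-3.39), Tgfbr2 (3.17), Vwa1 (4.65), Mrpl38 (5.97), Cnnm2 (6.68), Tmem129 (9.22), Fez2 (4.11), Zbtb43 (8.47), Cdc42bpb (6.03), Mertk (7.35), Smad1 (6.64), Gucy1a1 (4.73) and Itga7 (4.60). Of these genes, Slc10a6, Gpd1l1, Cdk18, Epas1, Rbbp4, Slfn4, Tmem88, Sds, Isg15 and Fez2 were above the floor on all 11 day 14 arrays. Each of the others had at least 1 floor value there, so the size of its difference depends on where the floor lies.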

How the results depend on the processing

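The number of genes called at day 14 (261), in the difference from day 10 (60) and in the difference from day 21 (299) changed with most settings, and the cause was not tested unless fewer genes or samples entered. Quantile normalization gave 32, 5 and 15 calls, raising values under 0.25 to 0.25 gave 53, 21 and 116, and fitting the compared groups alone gave 3, 0 and 0. Leaving out less variable genes (7988 tested) gave 38, 5 and 64, and testing genes that no compared array had at the floor (7662, 6565 and 6429) gave 19, 4 and 12. Array weights gave 122 at day 14 and, within 1.5 times of the count without them, 42 and 256. The rat number as a replicate block gave 98, 17 and 173. Day 14 groups share the number 15 alone, and whether a number that recurs across sizes or days is 1 animal is not stated. Leaving out 1 array gave 89 to 398, 36 to 117 and 199 to 377. Median centring (324, 71 and 310), the mean of probes (224, 56 and 291) and brain and muscle scores as covariates (257, 63 and 266) stayed within 1.5 times. The 32 genes called after quantile normalization and the 19 above the floor were all among the 261, and 94 of the 98 under the block were. Of 50 named genes called at day 14, 39 lost the call after quantile normalization, 47 in the fit of the 11 arrays alone, 26 under the block and 29 without 4 mm rat 17; 17 kept it in all 11 fits without 1 array. Among these 50 no direction turned under any alternative run. Of genes not called, Col9a1 turned to 0.17 and Pou2af1 to -0.13 with the mean of probes. With values under 0.25 raised, Pou2af1 turned to -0.19, Ccnb2 to -0.27 and Aldoc to -0.44. Over the fits without 1 array, Pou2af1 ranged from -0.35 to 1.77 (below 0 without 4 mm rats 15, 17 or 20 or 8 mm rats 12 or 13), Aldoc from -0.28 (without 4 mm rat 16) to 2.68, and Cd79b from -1.04 to 0.09 (without 8 mm rat 11).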
